A study of Homo sapiens with 48 samples.

Results

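CFPAC1 is an established human pancreatic ductal adenocarcinoma cell line. The comparison described here sets 3 RNA-seq libraries labelled siZNF274 (transient transfection with an siRNA against ZNF274) against 3 libraries labelled siCTRL (transfection with a control siRNA), 6 of the 48 samples of the series. They were chosen by their labels, and all 18103 of 36843 listed genes that passed the filter on low counts were tested. ZNF274 encodes a KRAB zinc finger protein, a DNA-binding repressor known for recruiting the machinery that deposits H3K9me3, a histone mark of silent chromatin, at the ends of zinc finger genes. In pancreatic cancer cells, epithelial identity rests on cell junctions, keratins and a set of epithelial transcription factors, and its loss is commonly followed through matrix genes, integrins and growth factor receptors. The title of the series names lineage plasticity and resistance to drugs that inhibit CDK7, a kinase of transcription and the cell cycle.

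Other groups of the series are used only for comparison: CFPAC1 treated with DMSO or with 5 µM AZA (azacitidine, an inhibitor of DNA methyltransferases), and siCTRL and siZNF274 libraries of ASPC1, a second pancreatic cancer line, each with 3 libraries. Every library started from 500 ng of total RNA, depleted of ribosomal RNA and prepared with a strand-preserving kit. The design text calls the triplicates biological, but no label names separate cultures, and the p-values therefore measure only how these particular libraries vary, which may be technical. The sources used here give neither the sequence of the siRNA nor the time after transfection.

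The 6 libraries held 36802346 to 43383141 counts. On the first principal component (39.9% of the variance) the groups lay apart, and on the second (24.1%) replicate 1 of each group lay apart from the other libraries. Ductal epithelial markers were present in every library, with a summed level of 9920 to 11200 CPM (counts per 1000000) with siCTRL and 8880 to 9390 CPM in the libraries labelled siZNF274. However, CFTR, one of those markers, stayed between 0.238 and 1.09 CPM. Here and below, levels of single genes are TMM-scaled, and summed levels are taken over the library total without TMM scaling. Mitochondrial mRNA took 1.20 to 1.71% and 1.10 to 1.37% of the counts in the same order, and MALAT1 0.466 to 0.570% and 0.482 to 0.658%.

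The targeted gene was not called lower. ZNF274 (ENSG00000171606.18, chromosome 19, 58183029 to 58213562, build hg38) stood at 33.5, 34.0 and 35.7 CPM with siCTRL and 32.6, 34.4 and 31.5 CPM in the libraries labelled siZNF274. The groups overlapped, the fold was 0.955 with a 95% interval of 0.880 to 1.04, and the quasi-likelihood test of edgeR, adjusted over all tested genes by Benjamini-Hochberg, gave adjusted p = 0.423. ZNF274 protein was not measured, so every direction given here is one between libraries by their labels, not by a shown loss of ZNF274 mRNA.

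Against siCTRL, edgeR called 4483 genes (24.8% of those tested) at an adjusted p under 0.05, of which 2099 (11.6%) were higher and 2384 (13.2%) lower in the libraries labelled siZNF274. Of these, 216 (1.19%) and 91 (0.503%) changed at least 2-fold. The 3 libraries of 1 group lay wholly above or below the other 3 for 37.6% of all tested genes. Without both replicate 1 libraries, 1641 genes were called higher and 1655 lower. The median log2 fold change of all tested genes was -0.0062, the value beside which the medians of the gene groups below are read. Calls, above all of falls, depended on level. With the tested genes split into level groups 1 (lowest) to 5 (highest), 3.98% rose and 1.66% fell in level group 1. In level group 4 the shares were 13.4% and 21.2%, and in level group 5 they were 14.4% and 24.1%. List counts below are not adjusted for level. Of 47 counts of 1 to 4 rises or falls in a gene list, 29 moved by over 1.5 times when some 1 library was left out, so counts this small are only a description. All adjusted p-values below are edgeR's, with Benjamini-Hochberg adjustment over all tested genes, and folds are those of the fit.

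**Figure D1:**
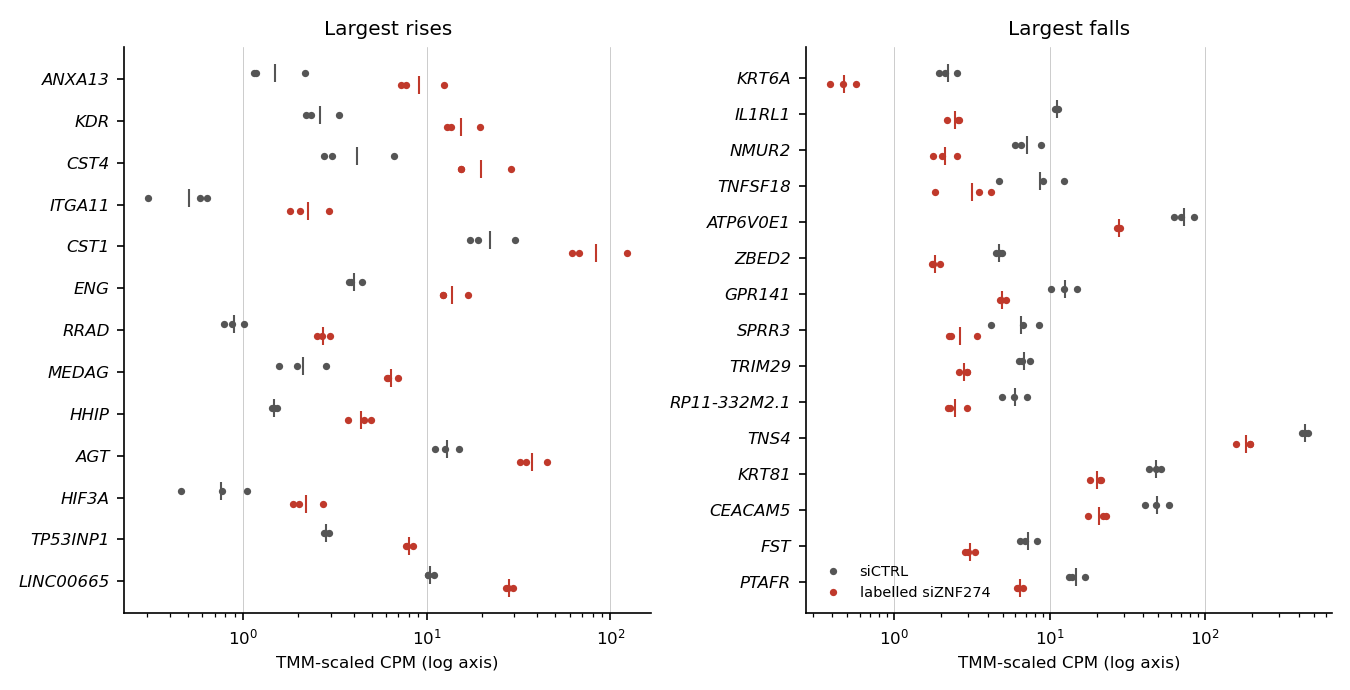
Levels of 13 of the 15 genes with the largest rises (left) and the 15 with the largest falls (right), as TMM-scaled CPM on a log axis, with 1 point per library (grey, siCTRL; red, labelled siZNF274) and a bar at each group mean. KDR lies between 2.20 and 3.33 CPM with siCTRL and between 12.8 and 19.4 CPM in the libraries labelled siZNF274, and KRT6A between 1.96 and 2.54 CPM and between 0.384 and 0.572 CPM.

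The genes with the largest rises include those of receptors, matrix receptors and secreted inhibitors. KDR (ENSG00000128052.10, chromosome 4, 55078481 to 55125595), the main signalling receptor for VEGF, stood at 3.33, 2.34 and 2.20 CPM with siCTRL and 19.4, 12.8 and 13.6 CPM in the libraries labelled siZNF274. The groups lay far apart, and replicate 1 was the highest library of each group. The rise was 5.81-fold with a 95% interval of 4.53 to 7.45 (log2 fold change 2.54, SE 0.169, adjusted p = 6.68e-08, n = 3 each, edgeR). In the DMSO libraries of CFPAC1 the level was 6.10 ± 0.716 CPM (SD, n = 3).

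ENG, endoglin, an accessory receptor for ligands of the TGF-beta family, stood at 3.86, 3.77 and 4.42 CPM with siCTRL and 16.7, 12.3 and 12.2 CPM in the libraries labelled siZNF274, a rise of 3.42-fold (log2 fold change 1.77, SE 0.147, adjusted p = 5.9e-07, edgeR). All 3 libraries labelled siZNF274 exceeded every control library. Of the genes named for the size of their rise, ANXA13 had the highest fold, an annexin of the intestinal epithelium, with 2.18, 1.17 and 1.14 CPM with siCTRL and 12.5, 7.67 and 7.20 CPM in the libraries labelled siZNF274 (6.07-fold, adjusted p = 1.34e-06, edgeR). HHIP, an inhibitor of hedgehog ligands, was 2.98-fold higher, AGT, angiotensinogen, 2.89-fold, TP53INP1, a stress-induced gene, 2.82-fold, and RRAD, a small GTPase, 3.05-fold. MEDAG and HIF3A rose 3.02-fold and 2.89-fold, and the long non-coding RNA LINC00665 rose 2.69-fold (adjusted p at most 0.000572, edgeR, for these 6 and LINC00665).

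KDR belongs to a list of 22 tested VEGF, angiopoietin and endothelial genes, of which 9 rose and 1 fell, with a median log2 fold change of 0.14. The ligands PGF (from 4.41 ± 1.05 to 8.67 ± 0.528 CPM, n = 3 each) and VEGFB (1.24-fold) rose, as did ANGPTL4 (2.19-fold), an inhibitor of lipoprotein lipase, whereas the co-receptor NRP2 was 1.32-fold lower (adjusted p = 6.2e-05, edgeR). VEGFA, the principal ligand of KDR, had a fold of 1.02 (adjusted p = 0.799, edgeR), with libraries that overlapped. Of 13 endothelial markers 5 were tested, and 3 of them, KDR, ESAM and TIE1, rose. Their summed level went from 18.6 to 21 CPM with siCTRL to 38.6 to 41.4 CPM, none of the 13 was at 0 in all 6 libraries, and PECAM1 stood at 1.35, 1.24 and 1.18 against 1.65, 1.31 and 1.61 CPM in the libraries labelled siZNF274 against siCTRL. The part of other cell types in these values was not tested, and in bulk RNA fewer cells of a type and less RNA per cell cannot be told apart.

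Receptors and ligands of the TGF-beta and BMP pathway moved in both directions. Of 49 tested members 18 rose and 8 fell, with a median of 0.14. TGFBR3, betaglycan, which presents TGF-beta to its signalling receptors, stood at 33.6, 31.3 and 37.7 CPM with siCTRL and 97.0, 81.9 and 83.4 CPM in the libraries labelled siZNF274 (2.56-fold, log2 fold change 1.36, SE 0.0839, adjusted p = 2.73e-08, edgeR). No library of 1 group reached those of the other. The signalling receptor genes, named here after their values were seen, rose less: TGFBR1 (1.34-fold, adjusted p = 0.000408, edgeR) and TGFBR2 (1.39-fold, adjusted p = 0.00331, edgeR). ACVR2B, an activin receptor, went from 15.4 ± 1.04 to 30.2 ± 2.21 CPM. BAMBI, a decoy receptor of the pathway, went from 88.7 ± 3.71 to 142 ± 12.8 CPM. Among the falls were FST, follistatin, which sequesters activin, at 8.28, 6.93 and 6.46 CPM with siCTRL and 3.00, 2.86 and 3.31 CPM in the libraries labelled siZNF274 (2.36-fold lower, adjusted p = 5.16e-06, edgeR), and the ligand TGFB2, 1.44-fold lower.

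Many matrix genes rose. Of 29 basement membrane genes 13 rose and 2 fell (median 0.41), and of 52 interstitial matrix and matricellular genes 22 rose and 4 fell (median 0.30). LAMA4, a laminin alpha chain, stood at 16.6, 17.1 and 19.5 CPM with siCTRL and 47.6, 44.6 and 44.2 CPM in the libraries labelled siZNF274, and its partner chains LAMB1 and LAMC1 rose 1.33-fold and 1.40-fold. FN1, fibronectin, stood at 39.9, 35.0 and 38.2 CPM with siCTRL and 92.4, 87.2 and 90.4 CPM in the libraries labelled siZNF274, so that the groups were clearly apart (2.39-fold, log2 fold change 1.26, SE 0.0808, adjusted p = 4.65e-08, edgeR). COL4A1 and COL4A6, chains of the basement membrane collagen, rose 1.65-fold and 2.03-fold. The collagen VI chains COL6A1 and COL6A2 rose 1.41-fold and 1.76-fold, and COL1A2, a chain of fibrillar collagen I, went from 1.57 ± 0.339 to 3.81 ± 0.214 CPM, while its partner COL1A1 had a fold of 1.06 (adjusted p = 0.771, and 0.0468 without siZNF274 replicate 1, edgeR). LOXL4, a collagen cross-linking enzyme, was 1.37-fold lower. Of 14 fibroblast markers 9 were tested, 3 rose and none fell, and their summed level overlapped (112 to 158 and 103 to 181 CPM). PDPN was at 0 in all 6 libraries, and the part of such cells was not tested.

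Among integrins, the receptors that bind these proteins, 10 of 27 integrin and integrin activator genes were higher and 1 lower (median 0.17). ITGB3 stood at 43.2, 38.3 and 44.5 CPM with siCTRL and 127, 99.0 and 98.8 CPM in the libraries labelled siZNF274, a 2.58-fold rise (log2 fold change 1.37, SE 0.0924, adjusted p = 7.67e-08, edgeR), and its partner ITGAV rose 1.37-fold. ITGA3, a laminin receptor subunit, went from 1705 ± 127 to 2755 ± 100 CPM, and ITGA1 and ITGA11, collagen receptor subunits, rose 1.93-fold and 4.44-fold. ITGB1, the common partner of these alpha chains, missed the threshold at a fold of 1.09 (adjusted p = 0.0519, edgeR) and passed it with DESeq2, with upper quartile or RLE scaling, with a filter at 1 CPM and without siZNF274 replicate 2, and its 3 libraries labelled siZNF274 lay above the 3 controls. The kindlins, which activate integrins, went opposite ways: FERMT2 stood at 52.4, 54.5 and 46.8 CPM with siCTRL and 84.6, 74.2 and 76.5 CPM in the libraries labelled siZNF274, a rise of 1.53-fold, and FERMT1, the epithelial member, at 216, 186 and 187 CPM with siCTRL and 134, 124 and 127 CPM in the libraries labelled siZNF274, 1.53-fold lower (adjusted p = 1.3e-05 and 2.66e-06, edgeR).

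Of 31 matrix proteases and their inhibitors 10 rose and 2 fell. PLAU, urokinase, a secreted serine protease, went from 1819 ± 17.9 to 2611 ± 224 CPM, and RECK, a membrane inhibitor of metalloproteinases, from 2.29 ± 0.347 to 5.27 ± 0.221 CPM. Among 17 cystatins, which inhibit cysteine proteases, and cathepsins, 8 rose and 1 fell. CST1 stood at 30.2, 19 and 17.2 CPM with siCTRL and 123, 61.5 and 67.5 CPM in the libraries labelled siZNF274 and CST4 at 6.63, 2.76 and 3.04 CPM with siCTRL and 28.8, 15.4 and 15.4 CPM in the libraries labelled siZNF274. Replicate 1 was again the highest library in each group for these genes. CST1, CST2 and CST4 are close paralogs on chromosome 20, and the sources used here do not name the counting program or how it handled reads they share. In the DMSO libraries CST1 stood at 70.9 CPM on average, within the range of the libraries labelled siZNF274 (61.5 to 123 CPM). The cathepsin genes CTSB and CTSL rose 1.46-fold and 1.55-fold, and 12 of 28 lysosomal genes rose and 1 fell.

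Many epithelial genes fell. Of 29 adherens junction and epithelial surface genes 16 fell and 3 rose (median -0.26). CDH1, E-cadherin, stood at 422, 435 and 431 CPM with siCTRL and 244, 287 and 299.9 CPM in the libraries labelled siZNF274, 1.55-fold lower (log2 fold change -0.63, SE 0.0636, adjusted p = 3.72e-06, edgeR). The highest library labelled siZNF274 lay well under the lowest control. The related adhesion molecules CEACAM5 and CEACAM6 were 2.36-fold lower and 2.08-fold lower; they are close in sequence and may share reads. The membrane protease gene ST14 was 1.36-fold lower, whereas CTNNA1, alpha-catenin, which links cadherins to actin, had a fold of 1.02 (adjusted p = 0.784, edgeR).

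Tight junction genes did not move as 1 group, with 7 of 33 higher (4 without siCTRL replicate 2 or both replicate 1 libraries) and 10 lower (median -0.04). CLDN1 stood at 48.6, 38.8 and 30.0 CPM with siCTRL and 19.8, 17.6 and 19.1 CPM in the libraries labelled siZNF274 and CLDN2, a claudin that forms cation-selective pores, at 198, 160.3 and 141 CPM with siCTRL and 334, 296 and 304 CPM in the libraries labelled siZNF274. The first was 2.08-fold lower and the second 1.87-fold higher (adjusted p = 1.41e-05 and 2.91e-06, edgeR). OCLN, occludin, was 1.3-fold lower, and MARVELD3, a relative of occludin, 1.75-fold lower. In the desmosome list (median -0.06) 7 of 19 fell (4 without siZNF274 replicate 2 or siZNF274 replicate 3), among them PKP2 (1.5-fold lower), DSP (1.41-fold lower) and JUP (1.28-fold lower), and 2 rose, DSC2 (1.21-fold) and ITGA6 (1.19-fold). The call of ITGA6 ended without both replicate 1 libraries (adjusted p = 0.0545, edgeR).

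Keratins of simple epithelia fell in 8 of 9 cases. KRT7, a ductal keratin, stood at 605, 700.3 and 617 CPM with siCTRL and 349, 418 and 419 CPM in the libraries labelled siZNF274 (1.62-fold lower, log2 fold change -0.70, SE 0.0694, adjusted p = 3.55e-06, edgeR), and KRT8 and KRT18, which pair with each other, were 1.19-fold lower and 1.20-fold lower; the call of KRT18 ended without siCTRL replicate 2 (adjusted p = 0.0513, edgeR). The exception was KRT20, an intestinal keratin, which stood at 13.1, 8.59 and 9.66 CPM with siCTRL and 36.9, 21.2 and 22.7 CPM in the libraries labelled siZNF274 and rose 2.57-fold. KRT81 and KRT86, hair-type keratins with near-identical sequences, were 2.37-fold lower and 1.89-fold lower. Of 19 keratins and envelope genes of stratified epithelia 8 fell and 1 rose (median -0.57), with KRT6A, a keratin of activated squamous cells, at 1.96, 2.11 and 2.54 CPM with siCTRL and 0.468, 0.572 and 0.384 CPM in the libraries labelled siZNF274. It was 4.61-fold lower and had the largest fall of those named by size. KRT6A has close paralogs with which it may share reads.

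Squamous and basal-like identity genes had 12 of 28 members lower and 3 higher (median -0.13). TNS4, a focal adhesion adaptor, stood at 436, 459 and 418 CPM with siCTRL and 159, 194 and 193 CPM in the libraries labelled siZNF274 (2.40-fold lower, log2 fold change -1.27, SE 0.0692, adjusted p = 2.02e-08, edgeR). TRIM29 and ZBED2, regulators linked to the basal-like state, were 2.41-fold lower and 2.60-fold lower. Genes of the classical state divided: TSPAN8 rose 1.60-fold and the iron exporter SLC40A1 1.68-fold, while AGR2, a disulfide isomerase of mucus-secreting cells, was 1.3-fold lower (6 of 19 higher, 3 lower). Among mucin genes and their glycosyltransferases 8 of 28 fell, with MUC1 at 389, 384 and 373 against 430.4, 451 and 486 CPM in the libraries labelled siZNF274 against siCTRL. MUC16 missed the threshold (adjusted p = 0.0508, edgeR), with 82.7, 116 and 109 against 131, 143 and 304 CPM in the libraries labelled siZNF274 against siCTRL. Leaving out siCTRL replicate 1 or siCTRL replicate 2 brought it past the threshold (adjusted p = 0.0177 and 0.0445), as did a fit of the 6 siRNA libraries alone (0.0425), and leaving out siCTRL replicate 3, the highest library, gave adjusted p = 0.336 (edgeR).

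Transcription and splicing factors of the epithelial state fell in 9 of 26 cases and rose in 4. Their median of 0.03 was not under that of all tested genes, so the list as a whole did not shift down. FOXA1, a pioneer factor of endodermal epithelia, stood at 70.0, 79.3 and 72.9 CPM with siCTRL and 39.6, 46.9 and 46.5 CPM in the libraries labelled siZNF274 (1.67-fold lower, log2 fold change -0.74, SE 0.0698, adjusted p = 2.1e-06, edgeR). The grainyhead factor genes GRHL2 and GRHL3 were 1.45-fold lower and 2.16-fold lower, and the epithelial splicing regulators ESRP1 and ESRP2 1.59-fold lower and 1.43-fold lower. GATA6, a factor of the classical state, rose 1.32-fold, and SOX9, a ductal factor, had a fold of 1.06 (adjusted p = 0.352, edgeR). Of 10 factors of the epithelial to mesenchymal transition 2 rose, 2 fell and the others did not pass. ZEB2, a relative of ZEB1, had a fold of 1.45 (adjusted p = 0.0671, edgeR) and passed without siCTRL replicate 1 (0.00127), without both replicate 1 libraries (0.00445) and with no filter on low counts (0.0226), and with DESeq2 (adjusted p = 0.0496). TCF3, an E protein and one of the falls (1.16-fold lower), was not called without siCTRL replicate 2, siCTRL replicate 3 or siZNF274 replicate 1, with upper quartile scaling or in a fit of the 6 siRNA libraries alone (adjusted p up to 0.21, edgeR). ZEB1, a repressor that binds E-boxes of epithelial genes, stood at 37.7, 31.8 and 29.9 CPM with siCTRL and 65.2, 54.1 and 52.9 CPM in the libraries labelled siZNF274 and rose 1.73-fold (log2 fold change 0.79, SE 0.0919, adjusted p = 1.53e-05, edgeR). FOXC1 rose 1.33-fold, TCF4 was 1.32-fold lower, and SNAI2 overlapped between groups (fold 0.887, adjusted p = 0.481, and 0.037 without siCTRL replicate 3, edgeR).

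Promoters of AP1M2, MUC1 and FOXA1, all called lower, are shown with the E-box letters CACCTG (or CAGGTG on the other strand) in capitals. None of them is a junction gene, and the promoter set used held no sequence for CDH1. A link between the rise of ZEB1 and the falls of epithelial genes was not tested. The sequences are the 250 bases before the gene start in RefSeq, build GRCh38.p14, read 5′ to 3′ on the gene's strand. Of all 27305 promoters in RefSeq's set 17.5% held these letters, against 6 of 14 matched adherens junction and epithelial surface genes and 18.6% of genes called lower. In the desmosome list it was 5 of 14, in the tight junction list 5 of 27 (18.5%), and in the basement membrane list, of which more members rose than fell, 8 of 29 (27.6%). Other lists with more rises than falls ranged widely. The S100 family had 8 of 18 (44.4%), cystatins and cathepsins 3 of 8 (37.5%), and interstitial matrix genes 5 of 43 (11.6%). The 14 surface genes include AP1M2, a sorting adaptor of epithelial membranes (chr19:10587313-10587562, minus strand), and MUC1 (chr1:155192916-155193165, minus strand), and FOXA1 (chr14:37595250-37595499, minus strand) is one of 4 of 14 epithelial factors with a match. A match describes letters and shows no binding.
AP1M2: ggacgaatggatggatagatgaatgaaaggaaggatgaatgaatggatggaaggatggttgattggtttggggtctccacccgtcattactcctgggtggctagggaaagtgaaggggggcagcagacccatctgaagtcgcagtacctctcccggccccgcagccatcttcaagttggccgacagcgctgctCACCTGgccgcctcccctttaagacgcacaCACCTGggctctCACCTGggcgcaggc
MUC1: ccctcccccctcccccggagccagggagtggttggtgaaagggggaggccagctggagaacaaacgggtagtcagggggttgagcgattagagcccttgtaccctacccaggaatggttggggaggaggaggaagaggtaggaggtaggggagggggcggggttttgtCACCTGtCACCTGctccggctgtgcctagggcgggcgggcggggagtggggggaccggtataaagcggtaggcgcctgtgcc
FOXA1: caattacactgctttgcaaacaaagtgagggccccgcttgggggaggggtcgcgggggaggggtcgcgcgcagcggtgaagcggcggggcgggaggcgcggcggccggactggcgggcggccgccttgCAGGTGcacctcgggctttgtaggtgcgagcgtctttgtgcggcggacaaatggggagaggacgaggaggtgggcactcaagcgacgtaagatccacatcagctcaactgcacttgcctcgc

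Most DNA replication genes fell. Of 60 tested members 43 fell and 1 rose, with a median of -0.29, and 29 fell without both replicate 1 libraries. RFC2, a subunit of the clamp loader that sets PCNA on DNA, stood at 73.7, 70.1 and 61.4 CPM with siCTRL and 35.2, 36.2 and 38.3 CPM in the libraries labelled siZNF274 (1.87-fold lower, log2 fold change -0.90, SE 0.0664, adjusted p = 1.82e-07, edgeR). The other members had smaller folds. MCM5 and MCM6, subunits of the replicative helicase, were 1.37-fold lower and 1.33-fold lower, CDC6, which loads that helicase, 1.33-fold lower, CHAF1B, a histone chaperone subunit, 1.43-fold lower, and POLA1, the catalytic subunit of the priming polymerase, 1.31-fold lower. Of MCM6, the libraries held 87.6, 96.8 and 102 against 134, 127 and 119 CPM (labelled siZNF274 against siCTRL), with no overlap. Of 40 homologous recombination and Fanconi genes 19 fell and 0 rose, and BRCA1 and BLM were 1.29-fold lower and 1.33-fold lower (adjusted p = 0.00011 and 0.000129, edgeR). The recombination count went down to 11 without siZNF274 replicate 1 or both replicate 1 libraries.

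**Figure D2:**
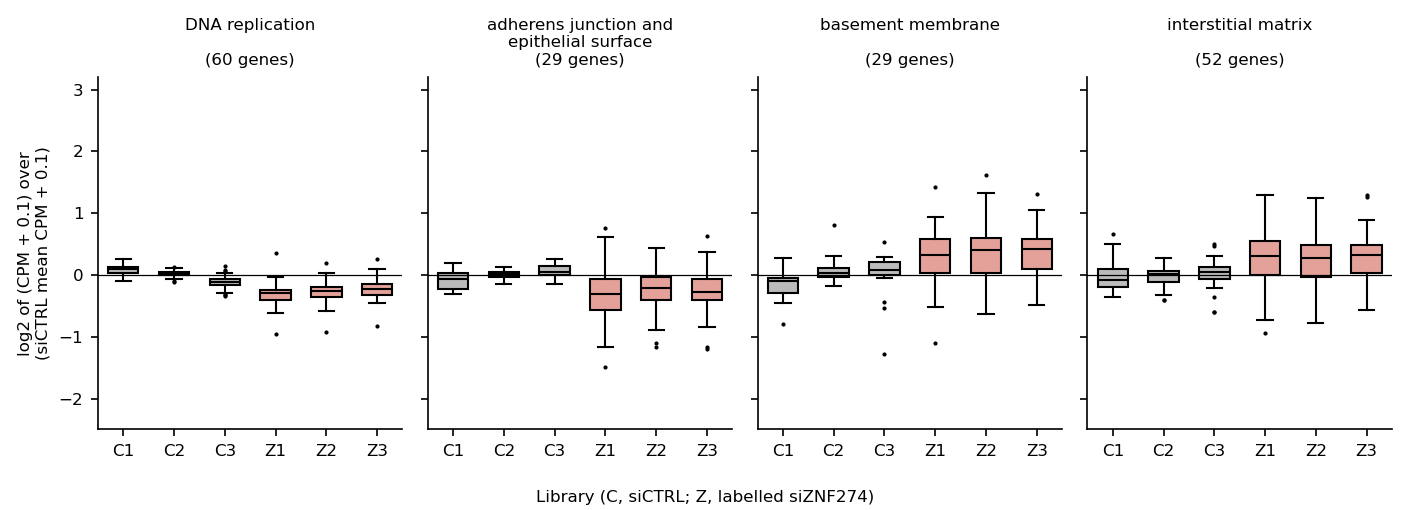
Log2 of each gene's CPM over its siCTRL mean (with 0.1 CPM added to each) in the 6 libraries, for 60 replication, 29 adherens junction and epithelial surface, 29 basement membrane and 52 interstitial matrix genes. Boxes span the middle quartiles over genes with the median as a line, whiskers reach 1.5 times that span and dots lie beyond; all 3 libraries labelled siZNF274 (Z) have medians under 0 in the first pair of panels and above 0 in the second pair.

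Mitotic genes fell in 33 of 56 cases (median -0.17), among them FOXM1 (1.33-fold lower) and MYBL2 (1.29-fold lower), transcription factors of the G2 phase, and the kinases PLK1 (1.27-fold lower) and AURKA (1.22-fold lower). The count was 15 without siZNF274 replicate 1, 19 without siZNF274 replicate 2, 21 without siCTRL replicate 2 and 16 without both replicate 1 libraries. CDC25B, a phosphatase that activates mitotic CDK1, went the other way, at 301, 263 and 267 CPM with siCTRL and 514, 438 and 433 CPM in the libraries labelled siZNF274 (1.67-fold, adjusted p = 1.47e-06, edgeR). It was the only member of the list called higher. Replication-dependent histone genes, 10 of 54 lower (5 without siCTRL replicate 2, siZNF274 replicate 2 or siZNF274 replicate 3) and 2 higher (1 without siZNF274 replicate 2 or both replicate 1 libraries), had a summed level of 3780 to 4100 CPM with siCTRL and 3780 to 4030 CPM in the libraries labelled siZNF274. DNMT1 and HELLS, the maintenance methyltransferase and a remodeller that aids it, were 1.23-fold lower and 1.31-fold lower.

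E2F factors control many DNA replication genes, and the promoters of the replication list often hold E2F letters. TTTGGCGC, TTTCCCGC, TTTGCCGC or TTTCGCGC, on either strand and with overlapping matches counted, stood in 16 of 52 matched replication promoters, in 2.79% of all 27305 promoters and in 4.21% of the tested genes' promoters. Within the list they stood in 11 of 39 promoters of genes called lower and in 5 of 13 of the others. Elsewhere the letters stood in 4 of 46 mitotic (8.7%), 2 of 37 recombination (5.41%) and 11 of 53 histone promoters (20.8%). Of the promoters of all genes called lower 5.73% held the letters. Shown in capitals in the 250 bases before the start, on the gene's strand in RefSeq GRCh38.p14, are those of MCM6 (chr2:135876444-135876693, minus strand), MCM7, another helicase subunit (chr7:100101398-100101647, minus strand), PCNA, the sliding clamp (chr20:5126623-5126872, minus strand), and E2F1 itself (chr20:33686386-33686635, minus strand), all of which were called lower. A run of capitals longer than the motif holds overlapping matches.
MCM6: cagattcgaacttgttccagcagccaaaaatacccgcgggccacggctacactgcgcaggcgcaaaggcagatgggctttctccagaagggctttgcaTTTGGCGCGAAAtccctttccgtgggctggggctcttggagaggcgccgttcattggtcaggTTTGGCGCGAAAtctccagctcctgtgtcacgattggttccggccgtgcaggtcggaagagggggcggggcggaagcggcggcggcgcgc
MCM7: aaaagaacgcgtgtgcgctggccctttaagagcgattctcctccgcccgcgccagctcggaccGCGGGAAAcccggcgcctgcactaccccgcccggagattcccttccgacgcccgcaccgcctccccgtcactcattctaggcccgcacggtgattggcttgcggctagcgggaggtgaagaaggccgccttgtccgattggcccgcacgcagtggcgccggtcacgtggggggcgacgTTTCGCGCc
PCNA: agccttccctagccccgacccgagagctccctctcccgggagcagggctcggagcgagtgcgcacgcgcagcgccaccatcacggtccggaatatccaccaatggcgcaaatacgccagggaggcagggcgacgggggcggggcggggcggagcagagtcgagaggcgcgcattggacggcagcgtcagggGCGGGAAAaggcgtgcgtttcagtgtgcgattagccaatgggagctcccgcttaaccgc
E2F1: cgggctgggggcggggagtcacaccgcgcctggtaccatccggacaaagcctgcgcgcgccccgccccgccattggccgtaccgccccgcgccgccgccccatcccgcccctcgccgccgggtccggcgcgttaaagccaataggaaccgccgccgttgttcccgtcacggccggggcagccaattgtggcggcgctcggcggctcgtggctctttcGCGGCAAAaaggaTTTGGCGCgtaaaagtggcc

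Several genes of growth arrest and cell death changed, but most tested members of their lists were not called. Of 34 CDK inhibitors and p53 targets 9 rose, 4 fell and 21 were not called. Of 20 BCL2 family genes 5 rose, 1 fell and 14 were not called. CDKN1A, CCNG1, MCL1 and BCL2L1 were among those not called. MDM2, a ubiquitin ligase, stood at 131, 124 and 127 CPM with siCTRL and 71.8, 74.3 and 75.4 CPM in the libraries labelled siZNF274, 1.72-fold lower (log2 fold change -0.78, SE 0.0470, adjusted p = 2.46e-08, edgeR). CDKN2B, an inhibitor of CDK4 and CDK6, rose 1.47-fold and CDKN1C, another CDK inhibitor, 1.62-fold. BMF, a BH3-only promoter of apoptosis, stood at 9.80, 9.06 and 9.85 CPM with siCTRL and 28.0, 24.7 and 21.9 CPM in the libraries labelled siZNF274 (2.60-fold, adjusted p = 2.11e-07, edgeR), and BAK1, a pore-forming member of the BCL2 family, rose 1.33-fold. TNFSF10, the death ligand TRAIL, went from 17.8 ± 1.74 to 36.5 ± 1.5 CPM, and TNFRSF10B and TNFRSF10D, which encode its death receptor and a decoy receptor, rose 1.53-fold and 1.55-fold. The related receptor gene TNFRSF10A was not called, and was called lower without siZNF274 replicate 1 (adjusted p = 0.0382, edgeR).

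CDK7, the kinase in the title of the series, stood at 21.3, 23.0 and 23.1 CPM with siCTRL and 20.1, 16.4 and 17.3 CPM in the libraries labelled siZNF274, 1.25-fold lower (log2 fold change -0.33, SE 0.0773, adjusted p = 0.00561, edgeR), and the groups did not overlap. Its partners CCNH and MNAT1, the other subunits of the CDK-activating kinase, were 1.20-fold lower and 1.17-fold lower (adjusted p = 0.0138 and 0.0149, edgeR). These calls of the partners ended without some libraries: that of CCNH without siCTRL replicate 1, siZNF274 replicate 3 or both replicate 1 libraries, with adjusted p up to 0.119 (edgeR), and that of MNAT1 without siCTRL replicate 2, siZNF274 replicate 2 or siZNF274 replicate 3, with adjusted p up to 0.1 (edgeR). Each was also lost in a fit of the 6 siRNA libraries alone. Of 22 transcription kinase genes 2 rose and 5 fell, and 1 fell without siZNF274 replicate 3, and 3 without siCTRL replicate 2 or siZNF274 replicate 2. The 5 falls were 22.7% of the list, beside 13.2% of all tested genes and 21.2% and 24.1% of those in level groups 4 and 5. In the list named drug efflux pumps 5 of 14 genes (35.7%) rose and none fell, beside 11.6% of all tested genes that rose. The rises were ABCA3 (1.57-fold), ABCA1 (1.42-fold), ABCC6 (1.78-fold), ABCG2 and ABCC4. ABCB1, ABCC1 and ABCC3 were not called, though ABCB1 and ABCC1 were under some alternatives. Transport of any drug was not measured.

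Cytokine receptors and ligands had 17 of 41 members higher and 7 lower. IL1RL1, which binds interleukin 33, stood at 10.8, 11.2 and 11.2 CPM with siCTRL and 2.62, 2.57 and 2.18 CPM in the libraries labelled siZNF274, 4.51-fold lower (log2 fold change -2.17, SE 0.133, adjusted p = 2.72e-08, edgeR), with little spread in either group. Its co-receptor IL1RAP went the other way, from 21.3 ± 0.868 to 34.2 ± 3.76 CPM (1.60-fold), IL6R rose 1.68-fold, and the cytokine IL18 was 1.67-fold lower. TNFSF18, a ligand of the TNF family, was 2.71-fold lower with a wide spread (1.82, 4.19 and 3.53 against 4.75, 9.11 and 12.3 CPM in the libraries labelled siZNF274 against siCTRL). Of 17 chemokine genes 7 fell and 2 rose, a count of falls that was 3 to 6 when any 1 library was left out and lowest without siZNF274 replicate 3 (3) and siZNF274 replicate 2 (4). CXCR4, a chemokine receptor, rose 2.18-fold and CXCL16 was 1.36-fold lower.

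Interferon-stimulated genes showed no common direction, with 6 of 42 higher and 7 lower. Without siCTRL replicate 3 the rises were 10, and the falls were 4 without siCTRL replicate 2 and 3 without siZNF274 replicate 1. MX1 stood at 236, 313 and 279.8 CPM with siCTRL and 119, 179 and 162 CPM in the libraries labelled siZNF274, 1.80-fold lower, whereas IFIT2 went from 32.0 ± 2.49 to 47.7 ± 0.974 CPM and STING1, a sensor adaptor, from 52.7 ± 2.03 to 72.7 ± 3.42 CPM (adjusted p = 0.000247, 5.1e-05 and 4.42e-05, edgeR). For each of the 3 genes the groups did not overlap. In the list of MHC class I and peptide loading, 8 of 19 rose and none fell, and 5 rose without both replicate 1 libraries. TAPBP, a peptide-loading chaperone, was 1.15-fold higher and the transporter gene TAP1 1.22-fold. Of 16 leukocyte markers 6 were tested and 2 rose, and their summed level was 68.9 to 75.0 CPM and 85.9 to 98.9 CPM in the same order. LYZ, which also belongs to the classical list, made up most of it (93.5, 78.9 and 81.7 against 71.8, 65.8 and 67.2 CPM in the libraries labelled siZNF274 against siCTRL), while CD3D, FCGR3A and NKG7 were at 0 in all 6 libraries; the part of such cells was not tested.

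Growth signalling lists mixed both directions. Of 42 further receptor tyrosine kinases and ligands 15 rose and 5 fell (3 without siZNF274 replicate 1 or siZNF274 replicate 2): EFNA1, an ephrin, went from 23.5 ± 2.59 to 45.5 ± 3.11 CPM, PDGFD, a platelet-derived growth factor, from 13.5 ± 2.44 to 24.7 ± 3.80 CPM, and FGF2 was 1.28-fold lower. EGFR and MET missed the threshold (folds 0.911 and 1.10, adjusted p = 0.159 and 0.0584, edgeR); MET passed it with DESeq2, with upper quartile or RLE scaling, with a filter at 1 CPM and without siCTRL replicate 1 or siZNF274 replicate 2 (adjusted p down to 0.0147). Feedback inhibitors of ERK signalling, SPRY4 and SPRY1, rose 1.46-fold and 1.26-fold, and FOSL1, a subunit of AP-1, was 1.29-fold lower. In the YAP list 8 of 36 fell and 4 rose (7 and 7 with upper quartile scaling). Among the falls were ANKRD1 (1.69-fold lower) and F3, tissue factor (1.67-fold lower). NT5E, an ecto-nucleotidase and one of the rises, stood at 237, 202 and 198 CPM with siCTRL and 466, 361 and 377 CPM in the libraries labelled siZNF274 (1.89-fold, adjusted p = 2.01e-06, edgeR). The WNT inhibitor genes DKK3 and DKK1 went opposite ways, 1.87-fold higher and 1.39-fold lower, and SFRP1 was 1.5-fold lower. NOTCH2 rose 1.5-fold, MAML3, a NOTCH coactivator, 1.68-fold, and MFNG, a glycosyltransferase that modifies NOTCH receptors, 2.00-fold.

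Among metabolic genes, ATP6V0E1 (ENSG00000113732.9, chromosome 5, 172983771 to 173035445), a subunit of the proton pump V-ATPase, stood at 84.3, 70.4 and 63.2 CPM with siCTRL and 27.3, 27.6 and 28.4 CPM in the libraries labelled siZNF274, 2.62-fold lower (log2 fold change -1.39, SE 0.0797, adjusted p = 2.11e-08, edgeR). The controls spread widely and the other group hardly at all. Of the other subunits TCIRG1 rose 1.44-fold, and the list had 5 of 23 lower (8 without siCTRL replicate 3, and 3 without siCTRL replicate 1, siZNF274 replicate 2, siZNF274 replicate 3 or both replicate 1 libraries). SLC7A5, a leucine transporter, stood at 229, 275 and 254 CPM with siCTRL and 119, 137 and 138 CPM in the libraries labelled siZNF274 (1.92-fold lower, adjusted p = 1.82e-07, edgeR) and ATF5, a stress response factor, was 2.02-fold lower, in a list of 33 genes of which 6 rose (3 without siCTRL replicate 2 or siZNF274 replicate 1, and 2 without both replicate 1 libraries) and 4 fell (5 without both replicate 1 libraries). EDEM1, which directs misfolded proteins to degradation, was 1.78-fold lower, SCD5, a desaturase, 1.85-fold lower, and CA12 and PFKFB3, genes of the hypoxia list, rose 1.65-fold and 1.41-fold.

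Many zinc finger genes of chromosome 19 rose. Among 463 tested genes named ZNF and a number, 87 rose and 29 fell (18 without siCTRL replicate 1, 19 without siCTRL replicate 2, 15 without siZNF274 replicate 1 and 14 without siZNF274 replicate 2). On chromosome 19, 60 of 223 rose and 5 fell (median 0.17), and on the other chromosomes 27 of 240 rose and 24 fell (median 0.01). Without both replicate 1 libraries the chromosome 19 count was 41 higher and 2 lower, and without siCTRL replicate 2 it was 38 higher. The 5 falls there were 3 without siCTRL replicate 1 or siZNF274 replicate 2, 2 without siZNF274 replicate 1 and 8 without siCTRL replicate 3, and the 24 falls elsewhere were 15 without siCTRL replicate 1 or siCTRL replicate 2, 13 without siZNF274 replicate 1 and 11 without siZNF274 replicate 2. ZNF850 stood at 12.2, 12.1 and 14.1 CPM with siCTRL and 25.6, 23.8 and 23.6 CPM in the libraries labelled siZNF274 (1.90-fold, log2 fold change 0.93, SE 0.0815, adjusted p = 1.09e-06, edgeR). ZNF486, ZNF880, ZNF506 and ZNF528, also on chromosome 19, rose 2.01-fold, 1.85-fold, 1.59-fold and 1.55-fold, with groups that did not overlap. The strongest call in the family was a fall, that of ZNF664 on chromosome 12, at 159.6, 152 and 141 CPM with siCTRL and 79.1, 90.8 and 92.1 CPM in the libraries labelled siZNF274 (1.73-fold lower, log2 fold change -0.79, SE 0.0613, adjusted p = 2.99e-07, edgeR). Away from chromosome 19, ZNF467 rose 2.17-fold, ZNF501 1.87-fold, ZNF608 1.69-fold and ZNF436 1.34-fold.

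H3K9me3 was profiled in ASPC1, not in CFPAC1, as 63955 broad peaks; the sources used here do not name the libraries behind them. Of 230 tested zinc finger genes covered to at least 50% of their length by these peaks, 66 (28.7%) rose and 4 (1.74%) fell. Among 304 other genes with the same cover 37 (12.2%) rose and 16 (5.26%) fell, beside 11.6% and 13.2% of all tested genes. With at least 80% cover 55 of 160 zinc finger genes rose and 2 fell. The authors called 409 peaks lower and 245 higher with the ZNF274 hairpin. Genes were matched to these only on chromosomes 20, 21, 22 and X. Chromosomes 1 to 19 were left out by the way the match was run, not by the peak list. The match is therefore incomplete and tells nothing about the zinc finger genes of chromosome 19. On chromosomes 20, 21, 22 and X, 11 tested genes overlapped a peak called lower, of which SYTL5 rose and MAP7D2 fell. Another 6 overlapped a peak called higher, of which EDA rose and CDH4 fell. Of the machinery that ZNF274 is known to recruit none of 26 genes rose and 3 fell (1 without siCTRL replicate 2, siZNF274 replicate 1, siZNF274 replicate 2 or both replicate 1 libraries, and 1 rose without siCTRL replicate 3), with TRIM28, the corepressor, at 411, 435 and 453 against 507, 497 and 459 CPM (labelled siZNF274 against siCTRL), a call that ended without siCTRL replicate 1, siCTRL replicate 2, siZNF274 replicate 1, siZNF274 replicate 2 or both replicate 1 libraries and in a fit of the 6 siRNA libraries alone (adjusted p up to 0.26, edgeR).

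**Figure D3:**
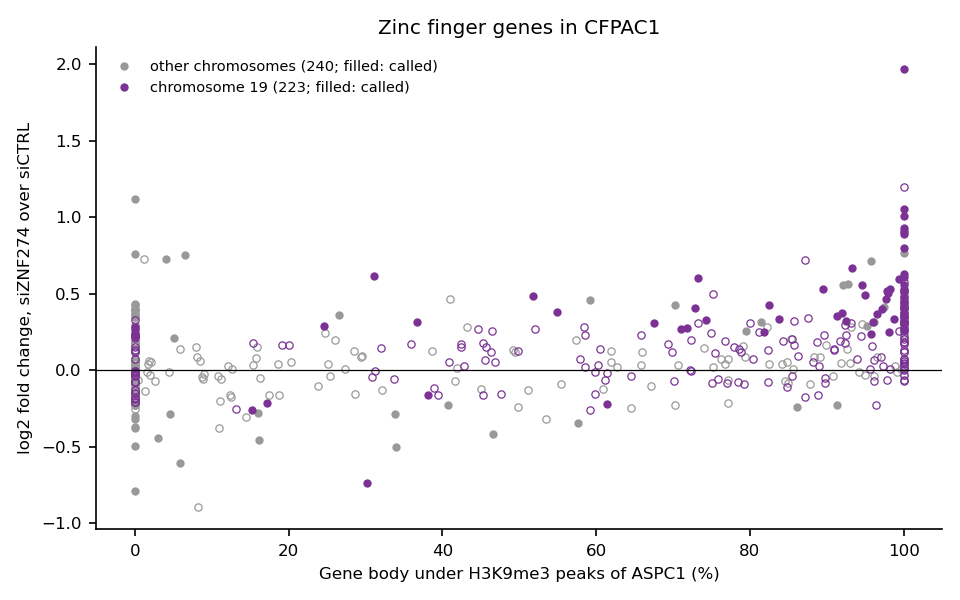
Log2 fold change of 463 zinc finger genes in CFPAC1 against the percent of the gene body under H3K9me3 peaks of ASPC1, for 223 genes on chromosome 19 (purple) and 240 on other chromosomes (grey), filled where edgeR's adjusted p was under 0.05. Filled points near full cover lie mostly above 0; with at least 80% cover 55 genes rose and 2 fell.

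Of 3887 tested long non-coding genes 149 (3.83%) rose and 124 (3.19%) fell, and of 14216 protein-coding genes 13.7% rose and 15.9% fell; the median level of a tested gene, not scaled by length, was 0.658 CPM in the first class and 25.9 CPM in the second. RP11-54H7.4 stood at 144, 118 and 137 CPM with siCTRL and 68.8, 61.9 and 60.6 CPM in the libraries labelled siZNF274 (2.08-fold lower, log2 fold change -1.06, SE 0.0921, adjusted p = 9.69e-07, edgeR), with the groups far apart. AFAP1-AS1, known from pancreatic tumours, was 1.66-fold lower and the host gene SNHG16 1.43-fold lower, whereas XXYLT1-AS2 rose 2.25-fold. The sources used here do not state the strand setting of the counting, so reads of antisense genes and of the genes they overlap may not be separated.

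Some called genes lie side by side among the tested genes; these runs were picked after their values were seen. The longest is on chromosome 14 (94304248 to 95158010, hg38), where 7 neighbours rose, a long non-coding gene among them; SERPINA6, SERPINA1, SERPINA4, SERPINA5, SERPINA3 and DICER1 are the others. SERPINA1, alpha-1 antitrypsin, stood at 190.4, 169 and 170.4 CPM with siCTRL and 377, 282 and 288 CPM in the libraries labelled siZNF274 and SERPINA5, the protein C inhibitor, at 55.3, 58.1 and 64.9 CPM with siCTRL and 130.2, 117 and 119 CPM in the libraries labelled siZNF274; they rose 1.79-fold and 2.06-fold (adjusted p = 4.35e-06 and 2.73e-08, edgeR). For both genes the groups did not overlap. The call of DICER1 ended without siCTRL replicate 2 (adjusted p = 0.0541, edgeR). On chromosome 12 the neighbours KRT7, KRT7-AS, KRT86 and KRT81 all fell, and on chromosome 19 the runs ZNF253 to ZNF90, ZNF571 to ZNF607 and ZNF610 to ZNF528 held 4 rising genes each.

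The same contrast in ASPC1, in which 45.7% of 16186 tested genes were called (21.5% higher and 24.2% lower), differed from that in CFPAC1 for 3178 of 19094 genes (16.6%) by an interaction test over 24 libraries (edgeR). Of the CFPAC1 rises that were tested in both lines 58% also rose in ASPC1 (30.9% of the rises there) and 8.9% fell, and of the falls 66% also fell (38.2%) and 3.91% rose. By the interaction test the change was higher in CFPAC1 for 9.28% and lower for 7.37%, and by at least 2-fold for 1.67% and 1.57%. PIK3AP1, an adaptor of PI3 kinase signalling, went from 70.8 ± 6.85 to 19.8 ± 1.10 CPM in ASPC1 and from 235 ± 11.9 to 262 ± 13.7 CPM in CFPAC1, a difference of 2.01 on the log2 scale (SE 0.0937, adjusted p = 1.09e-13, edgeR); its own small rise in CFPAC1 was not called without siCTRL replicate 2, siZNF274 replicate 1 or both replicate 1 libraries or in a fit of the 6 siRNA libraries alone (adjusted p up to 0.174, edgeR). FGFBP1, a carrier of fibroblast growth factors, fell in CFPAC1, with 119, 138 and 145 CPM with siCTRL and 55.1, 59.7 and 61.0 CPM in the libraries labelled siZNF274, and rose in ASPC1 from 40.0 ± 1.89 to 66.1 ± 1.54 CPM (difference -1.90, adjusted p = 6.2e-12, edgeR). NCMAP and MAOB, a monoamine oxidase, rose in CFPAC1 (1.95-fold and 2.29-fold) and fell in ASPC1 (differences 2.29 and 1.75), as did PAPSS2, a sulfate donor synthase, and BAMBI. COL7A1, the anchoring-fibril collagen, rose 1.49-fold in CFPAC1 and more in ASPC1 (difference -2.17), and KRT23 fell in both, by less in CFPAC1 (difference 3.00; adjusted p = 2.81e-12, edgeR). PRSS23, a secreted protease, had a fold of 0.995 in CFPAC1 (adjusted p = 0.949, edgeR) against a rise from 86.2 ± 5.69 to 274 ± 7.83 CPM in ASPC1.

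**Figure D4:**
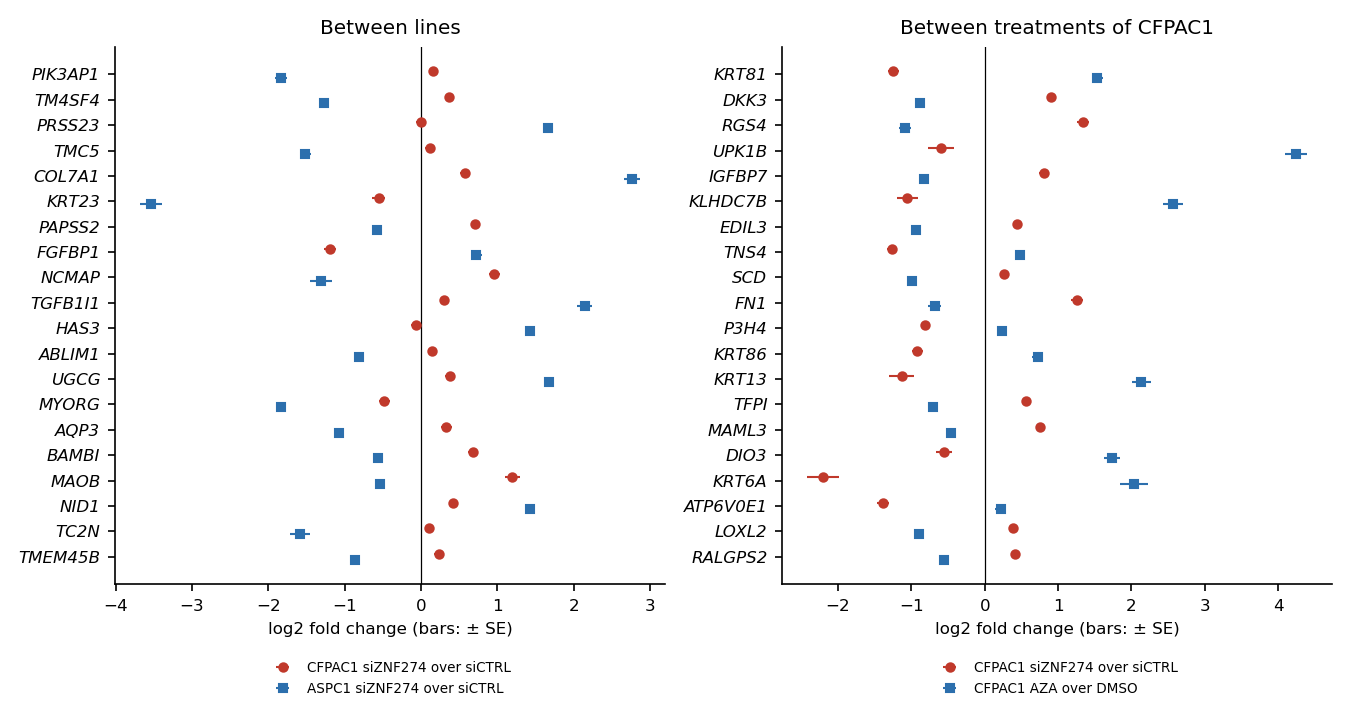
Log2 fold changes (± SE of the fit of each line) of the 20 genes with the smallest p in the test between lines (left; red, CFPAC1; blue, ASPC1) and of the 20 in the test between treatments of CFPAC1 (right; red, siZNF274 over siCTRL; blue, AZA over DMSO). FGFBP1 and KRT81 are examples of opposite signs.

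Azacitidine, read against its own DMSO controls, gave different changes in CFPAC1 for 3988 of 18103 genes (22.0%) by the test of the difference between both effects (edgeR), 11.3% with a higher and 10.7% with a lower change in the siRNA contrast. KRT81 fell in the libraries labelled siZNF274 (18.1, 21 and 21.5 against 43.8, 52.2 and 48.0 CPM) and rose with AZA from 40.2 ± 0.175 to 116 ± 7.29 CPM, a difference of -2.78 on the log2 scale (SE 0.105, adjusted p = 1.82e-10, edgeR). KRT6A and KRT13 differed in the same direction, with differences of -4.24 and -3.26, and TNS4 fell against siCTRL while it rose with AZA from 476 ± 18.1 to 662 ± 10.3 CPM. The opposite held for FN1, which fell with AZA from 30.9 ± 4.24 to 19.2 ± 1.22 CPM, for RGS4, a regulator of G protein signalling, at 15, 14.2 and 13.6 CPM with siCTRL and 36.8, 34.6 and 37.4 CPM in the libraries labelled siZNF274 and from 16.1 ± 1.76 to 7.57 ± 0.407 CPM with AZA, and for IGFBP7 and DKK3 (differences 1.94, 2.43, 1.64 and 1.79, adjusted p at most 2.66e-08, edgeR). The uroplakin gene UPK1B had the largest difference of the 20 genes named by this test, -4.84: it rose with AZA from 2.13 ± 0.200 to 40.4 ± 3.95 CPM and was 1.51-fold lower against siCTRL, with overlapping groups. That call ended in a fit of the 6 siRNA libraries alone and without siCTRL replicate 2, siCTRL replicate 3, siZNF274 replicate 1 or siZNF274 replicate 3 (adjusted p up to 0.11, edgeR). AZA itself called 25.7% of the tested genes against DMSO, 12.2% higher and 13.5% lower. Of the genes called higher against siCTRL 20.7% were also higher with AZA (19.7% of those higher with AZA), and of those called lower 23.9% were also lower (23.3%). Opposite calls were near the shares over all tested genes. Of the genes called higher against siCTRL 333 (15.9%) were lower with AZA, beside 13.5% of all. Among those called lower 249 (10.4%) were higher with AZA, beside 12.2% of all.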

How the data were processed

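Counts per gene were made by the authors from stranded, ribosomal RNA-depleted libraries with STAR 2.7.10b and build hg38, per the submitters' processing notes; these name no counting program, strand setting or annotation release for the RNA. The deposited H3K9me3 peak list holds a score that is the same in every peak and was not used, and its calls of lower and higher peaks are the authors'. Deposited counts of 36802346 to 43383141 per library were analysed as they stand, and arm and replicate came from the sample labels.

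The 12 CFPAC1 libraries (siCTRL, siZNF274, DMSO and AZA, 3 each) were fitted together in edgeR 4.0.16 (R 4.3.3, limma 3.58.1) with filterByExpr, TMM scaling, glmQLFit and glmQLFTest, and p-values were adjusted by Benjamini-Hochberg over all 18103 tested genes at a threshold of 0.05. The difference between lines was an interaction contrast over 24 libraries, and that between treatments one over the 12. The procedure was tested on simulated data. Gene members and lists (56) were chosen with earlier results of these data known, and lists are described by counts and medians without a test. Genes were named by rule: the 15 largest rises and falls among called genes with separate groups and at least 2 CPM in the higher group, up to 8 called and 4 uncalled members per list, 10 zinc finger genes, 12 long non-coding genes, 20 genes per interaction test, and ZNF274. Some genes that this rule selects are not reported here.

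Promoters came from RefSeq (GRCh38.p14), in which 12360 tested genes matched by symbol, and gene and peak coordinates are those of the deposited files. Alternatives covered scaling, filters, DESeq2 1.42.0, the libraries fitted, a replicate block, each library left out and, chosen after seeing the data, both replicate 1 libraries left out. Same-numbered libraries of the groups correlated in their deviations at r = 0.282, 0.016 and 0.06, so the numbers were not taken to pair them.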

Additional observations from a re-analysis of the deposited data

Results flagged for a closer look

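A different effect of the same contrast in CFPAC1 and ASPC1, by edgeR's interaction test with Benjamini-Hochberg adjustment, marked the following results. Over all 19094 genes tested in the joint fit of the lines, the log2 fold change was higher in CFPAC1 for 1771 genes, of which 319 differed at least 2-fold. It was lower for 1407, of which 300 differed at least 2-fold. Only 15284 genes passed the filter in the separate fits of both lines, so these counts can include genes near the floor in 1 line. Of 51 genes singled out by size, class or this test and tested in both lines, 37 differed, and 20 of these were singled out by this test itself.

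Differences below are log2 fold changes of CFPAC1 minus those of ASPC1. Among genes not singled out by the difference, the value was above 0 for ANXA13 (2.79), ENG (1.41), AGT (2.93), ATP6V0E1 (0.44), CEACAM5 (1.14), ZNF664 (0.63), ZNF467 (0.69), ZNF608 (0.60) and SNHG16 (0.31), and under 0 for HIF3A (-4.59), TP53INP1 (-0.76), ZBED2 (-0.82), TNS4 (-0.27), ZNF528 (-2.5), RP11-54H7.4 (-1.07), RP1-127C7.8 (-1.18) and RP6-65G23.3 (-0.82). HIF3A stood at 0, 0.0258 and 0 CPM in the siCTRL libraries of ASPC1, so that its fitted difference depends on the prior count and gives no bound. AGT and ZNF528 were also near the floor in ASPC1, and their sizes are uncertain.

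Among the genes singled out by the difference, the value was above 0 for PIK3AP1 (2.01), TM4SF4 (1.66), TMC5 (1.65), KRT23 (3.00), PAPSS2 (1.31), NCMAP (2.29), ABLIM1 (0.96), MYORG (1.37), AQP3 (1.42), BAMBI (1.27), MAOB (1.75), TC2N (1.71) and TMEM45B (1.13). It was under 0 for PRSS23 (-1.66), COL7A1 (-2.17), FGFBP1 (-1.90), TGFB1I1 (-1.82), HAS3 (-1.47), UGCG (-1.29) and NID1 (-1.0).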

How the results depend on the processing

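Of 633 genes recomputed, none that was called changed direction under an alternative, while some uncalled genes with folds near 1 did. The balance of rises and falls was less stable: over all genes it turned to 2429 higher and 2041 lower with upper quartile scaling, and it turned under at least 1 alternative in 4 of 59 lists, the interferon and stress response (SLC7A5, ATF5) lists among them. Leaving out 1 library at a time gave 1621 to 2321 genes higher and 1565 to 2434 lower against 2099 and 2384, the lowest count of falls being that without siZNF274 replicate 2. A filter at 1 CPM in 3 libraries left 117 and 46 genes changed at least 2-fold against 216 and 91; fewer genes are tested there (14554). With the replicate block, 2290 genes were higher and 2466 lower and 4280 (95.5%) of the calls were kept, and MUC16 and ZEB2 passed (adjusted p = 0.0165 and 0.0303, edgeR); with the 6 siRNA libraries alone 3259 (72.7%) were kept. The share of calls that were higher was 46.8%, and 54.3% with upper quartile scaling, under which the median of all genes was 0.02 on the log2 scale. Without any filter on low counts, edgeR gave far smaller p-values for many genes (MUC16, 7.71e-43 against 0.0508), and the cause was not tested.

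Counts by H3K9me3 cover moved with the cover asked for. With any overlap, 720 genes were higher and 629 lower against 103 and 20 at 50%, 17 zinc finger genes were lower against 4, and 647 other genes were higher and 612 lower against 37 and 16. With at least 80%, 12 of all genes and 2 zinc finger genes were lower, and 21 other genes were higher and 10 lower; more or fewer genes meet each cover. Of recomputed list counts 1416 stayed within 1.5 times and 236 did not. For genes listed at a few CPM or less, depth limits the precision, and differences there were often not detectable.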

Other observations

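Oxidative stress genes controlled by NRF2 had 5 of 30 members higher (9 without siCTRL replicate 1) and 3 lower (1 without siZNF274 replicate 2). HMOX1, which degrades heme, was 1.56-fold higher (7.88, 6.88 and 7.22 against 5.79, 4.36 and 3.94 CPM in the libraries labelled siZNF274 against siCTRL), FTL, the ferritin light chain, 1.41-fold, and SLC7A11, the cystine transporter, 1.36-fold, whereas GPX2, a glutathione peroxidase, was 1.42-fold lower (adjusted p = 0.00155, 0.00472, 0.00259 and 0.00517, edgeR). In the NF-kB list 5 of 24 rose and 2 fell. CEBPD, a transcription factor of the acute phase, was 2.13-fold higher (65.2, 47.2 and 46.8 against 24.5, 25.4 and 24.6 CPM), ICAM1, an adhesion molecule, 1.62-fold, and TNFAIP3, a feedback inhibitor of NF-kB, 1.42-fold lower (adjusted p = 2.6e-06, 9.03e-05 and 0.000339, edgeR).

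Among fatty acid and lipid droplet genes 6 of 31 rose and 6 fell, with PLIN2, a droplet coat protein, 1.3-fold higher and ACSL1, an acyl-CoA synthetase, 1.49-fold lower. Of 29 neuroendocrine and neural markers 12 were tested, 3 rose and 1 fell. Their summed level was 178 to 210 CPM with siCTRL and 251 to 257 CPM in the libraries labelled siZNF274, with TUBB3, a neural tubulin, 1.60-fold and NES, nestin, 1.41-fold higher, while NEFM and STMN2 were among those at 0 in all 6 libraries; the part of such cells was not tested. Of 14 genes of small RNA silencing, 5 rose and 2 fell, DROSHA, the nuclear microRNA processor, by the largest step (1.45-fold lower, adjusted p = 0.000283, edgeR). The 5 rises were 1 without siCTRL replicate 2, 2 without siZNF274 replicate 1 and 3 without any other 1 library, and the 2 falls were 1 without siCTRL replicate 2, siCTRL replicate 3, siZNF274 replicate 1 or siZNF274 replicate 2.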
